A study of Mus musculus with 6 samples.

Results

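This section describes 9 genes of platelet-derived growth factor (PDGF) signalling and of pericytes in the inner enamel epithelium (IEE) of the mandibular first molar. They were taken from the deposited expression table by exact symbol, and all 9 were found among its 18152 genes. The members were the ligand genes *Pdgfa*, *Pdgfb* and *Pdgfc*, the receptor genes *Pdgfra* and *Pdgfrb*, and the perivascular genes *Rgs5*, *Cspg4*, *Acta2* and *Mcam*. RNA came from the E18.5 IEE of 3 controls, genotype *Kdf1* fl/fl, and 3 conditional knockouts (cKO), genotype *K14-Cre;Kdf1* fl/fl, with 1 library each. The floxed *Kdf1* alleles and the C57BL/6J background were common to both groups, and the labels call the controls WT. In the cKO, Cre driven by the keratin 14 promoter deleted *Kdf1* in epithelial cells, so mesenchymal and vascular cells were not the target of the deletion. The IEE was cut from frozen head sections with a laser, and the sources do not say whether tissue of several embryos was pooled.

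PDGF ligands are secreted dimers that act on 2 receptor tyrosine kinases. PDGF-A and PDGF-C act mainly on PDGFRα, which marks fibroblast-like mesenchymal cells, and in many developing organs these ligands come from the epithelium. PDGF-B is released by endothelial cells and acts on PDGFRβ of pericytes, the contractile support cells wrapped around capillaries. PDGFRβ is also found in other mesenchymal cells. The stroma below the dental epithelium, the dental papilla, is vascularised during the bell stage.

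*Kdf1* was examined first. It had 44.3 to 52.7 CPM (counts scaled to an equal library total) in the control libraries, and 1 read in total was counted for it in the cKO libraries. The library totals ranged from 14713918 to 16675133 counts. All 12 dental epithelium markers examined were present in every library, but genes of other tissues were present as well. The summed level of the 12 epithelial markers was 16840 to 47650 TPM (transcript level scaled for length and library total) in control and 6282 to 10490 TPM in cKO mice. The enamel protein gene *Amelx* alone had 4016.7, 15804.5 and 32209.44 TPM in control and 9.45, 173.17 and 698.9 TPM in cKO replicates 1, 2 and 3. It therefore weighs heavily in this sum. The summed level of 15 dental mesenchyme markers was 1617 to 8926 and 4450 to 6018 TPM, and that of 16 endothelial markers was 320.7 to 430.9 and 450.7 to 1142 TPM. The collagen gene *Col1a1* alone had 627.83 to 4161.23 TPM in control and 1478.74 to 2089.24 TPM in cKO libraries, so it weighs heavily in the mesenchymal sum. On average, 11 of 12 epithelial markers were lower, and 11 of 15 mesenchymal and 16 of 16 endothelial markers were higher in cKO mice, against 49.5% of all genes tested that were higher. In bulk tissue, more cells of a type and more RNA per cell cannot be told apart, and the part of these markers in the results below was not tested. The 8 Schwann cell markers summed to 54.8 to 68.4 and 42.0 to 78.0 TPM, and *Sox10*, the glial regulator among them, had 0.04 to 0.05 TPM in the controls and 4.56, 0.36 and 0.36 TPM in replicates 1, 2 and 3 of the other group. These levels rest on 1 count in each control and on 92, 8 and 8 counts in the cKO, and *Sox10* was not tested. Of the 6 Schwann cell markers tested, 4 were lower and 2 higher on average. The 10 skeletal muscle markers summed to 10.5 to 14.2 and 13.2 to 17.5 TPM, with *Myod1* at no more than 0.07 TPM and *Myog* at no more than 0.37 TPM. The 6 osteoblast markers summed to 863.1 to 1940 and 722.2 to 1128 TPM.

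The PDGF and pericyte genes were higher in cKO mice in 8 of 9 cases on average, and *Pdgfrb* had the largest fold change, from 14 ± 5.54 to 59.3 ± 40.3 TPM (SD, n = 3 per group). *Pdgfra*, *Pdgfrb*, *Pdgfc*, *Rgs5* and *Mcam* were higher in every cKO library than in any control library. The remaining ligand genes *Pdgfa* and *Pdgfb*, the proteoglycan gene *Cspg4* and the actin gene *Acta2* overlapped between the groups. These 5 of 9 genes without overlap stand beside 14.5% of all genes tested that were likewise separated and higher. The log2 fold changes of the 9 genes had a median of 0.78, against 0.00 for all genes, and 0.33 without replicate 1 of the cKO.

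Genes were called where the log2 fold change was 1 or more in either direction and the adjusted p did not exceed 0.05. None of the 9 was called in the quasi-likelihood test of edgeR (Benjamini-Hochberg), where 0.432% of the 14131 genes tested were called. All 9 genes passed the filter on low counts. An unadjusted p of at most 0.05 was reached by 5 of the 9, all higher, where 13.0% of all genes were higher at this level. When edgeR was given the replicate number as a block, 1 of 9 genes (*Pdgfrb*) was called, beside 6.09% of all genes. The labels do not state this pairing, which was read from these same data, so p-values with the block may be too small. DESeq2 also called *Pdgfrb* alone, beside 6.81% of all genes, and 7.55% with the block. At an adjusted p of at most 0.1 in edgeR the call was again *Pdgfrb* alone, beside 4.73% of all genes. Limma-voom called 0 of 9, beside 0.0425% of all genes, and gave an unadjusted p of at most 0.05 to 5 of 9, beside 23.5% of all genes. The adjusted p without the fold criterion was reached by *Pdgfra* and *Pdgfrb* with the block, 2 of 9 beside 9.87% of all genes.

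**Figure D1:**
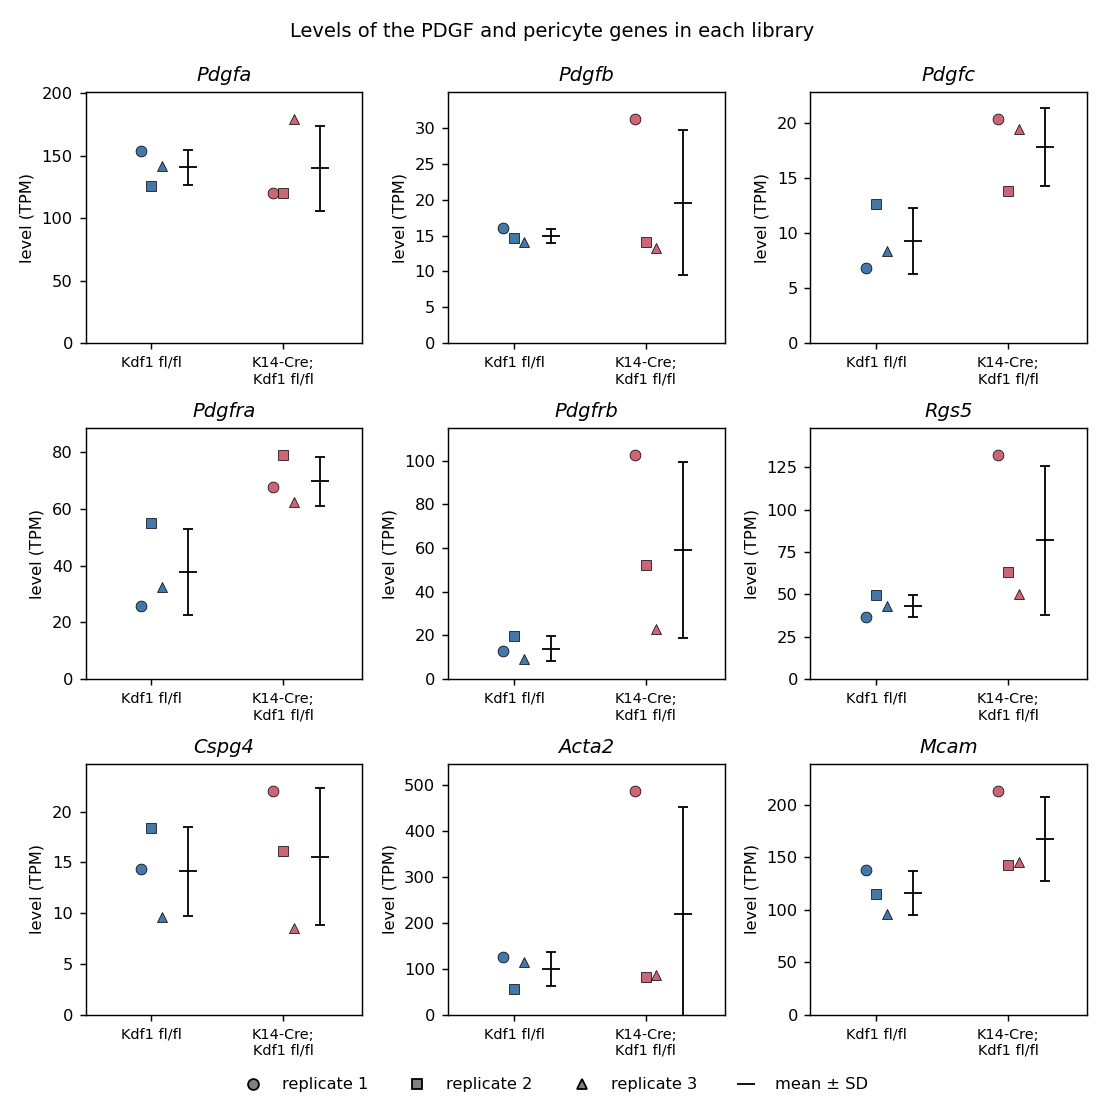
Level of each gene in TPM in the 6 libraries, by genotype. Symbols mark the replicate number and bars the mean ± SD of 3 libraries, with the lower bar of *Acta2* in cKO mice cut at 0. Replicate 1 of cKO was the highest of the 6 libraries in 7 of 9 panels.

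Of the ligands, *Pdgfa* (gene ID 18590) was the most abundant. It had 154, 126 and 142 TPM in replicates 1, 2 and 3 of control and 120, 120 and 179 TPM in those of cKO mice. The groups overlapped, with the highest value in replicate 3 of cKO. Its log2 fold change was −0.12 (95% interval −0.65 to 0.40, adjusted p = 0.764 in edgeR), and it was 0.03 when replicate 2, or 0.02 when replicate 1, of the cKO was left out.

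*Pdgfb* (gene ID 18591), the ligand that endothelium uses to recruit pericytes, had 16.1, 14.7 and 14.2 TPM in control libraries, which was the narrowest spread of all 9 genes (6.57% of the mean). It had 31.2, 14.2 and 13.3 TPM in cKO libraries. Replicate 1 of the latter stood well above the controls, whereas replicates 2 and 3 were at or just below the lowest control. The log2 fold change of 0.15 (95% interval −0.57 to 0.87, adjusted p = 0.792 in edgeR) turned to −0.28 without that replicate 1.

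*Pdgfc* (gene ID 54635), which encodes a ligand that must be cleaved before it can bind PDGFRα, had the lowest mean level of the 9 genes in the controls. It was at 6.84, 12.7 and 8.43 TPM in control and at 20.4, 13.8 and 19.5 TPM in cKO mice. Every cKO library lay above the controls, although replicate 2 of each group came close to the other group. Its log2 fold change was 0.78 (SE 0.22), with an adjusted p of 0.101 in edgeR, 0.0806 once the block was added and 0.0263 by DESeq2, and it stayed below the fold criterion in all of them. The ratio of *Pdgfa* to *Pdgfb* was 8.59 to 10 within the control libraries and 3.85, 8.48 and 13.5 in replicates 1, 2 and 3 of cKO.

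The receptors differed from each other in how the libraries were spread. *Pdgfra* (gene ID 18595) had 25.9, 54.9 and 32.3 TPM in control and 67.6, 79.0 and 62.3 TPM in cKO mice, so that the controls were the more variable group (40.4% against 12.2% of the mean). Replicate 2 was the highest in both groups. The mean was 37.7 ± 15.2 in control and 69.6 ± 8.5 TPM in cKO mice (SD, n = 3 per group). On the log2 scale the fold change was 0.83 (SE 0.25, adjusted p = 0.116 in edgeR), and with the replicate block it was 0.89 (adjusted p = 0.0221, edgeR; 7.54e-05 to 0.367 over 17 alternatives). It was the only one of the 5 non-overlapping genes whose fold change was larger without replicate 1 of the cKO.

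*Pdgfrb* (gene ID 18596) was at 13.1, 19.98 and 9.02 TPM in control and at 103, 52.3 and 22.9 TPM in cKO mice. The lowest cKO library lay just above the highest control, and the highest of all libraries had 11.4 times the level of the lowest. The log2 fold change was 2.00 (SE 0.49, 95% interval 0.84 to 3.16), with an adjusted p of 0.0841 in edgeR's quasi-likelihood test. It was past the criterion in edgeR when the replicate block was added (log2 fold change 1.84, adjusted p = 0.0285). The same held in DESeq2 (2.01, adjusted p = 0.000420), and over 17 alternatives the adjusted p ranged from 2.26e-08 to 0.308. Leaving out replicate 1 of cKO gave 1.44, and leaving out replicate 3 gave 2.39 and a call in edgeR.

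Among the pericyte genes, *Rgs5* (gene ID 19737), which encodes a regulator of G protein signalling that is abundant in pericytes, had 36.8, 49.5 and 43.2 TPM in control libraries. The values in cKO libraries were 132, 63.2 and 50.2 TPM. All were above the controls, but replicate 3 exceeded the highest control by less than the spread within the controls. On the log2 scale the difference was 0.83 (SE 0.31), with adjusted p = 0.166 (edgeR) or 0.190 (replicate block), and 0.39 without replicate 1 of the cKO.

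*Mcam* (gene ID 84004) encodes the adhesion molecule CD146 of endothelial cells and pericytes. It was at 138, 115 and 96.2 TPM in control and at 213, 143 and 146 TPM in cKO mice. Replicate 2 of the latter lay just above the highest control. The log2 fold change of 0.46 (SE 0.17) was the smallest of the 5 genes without overlap, with an adjusted p of 0.163 in edgeR, 0.0551 with the replicate block, and 0.109 and 0.0195 in DESeq2 without and with the block.

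*Cspg4* (gene ID 121021) encodes the proteoglycan NG2, a surface marker of pericytes and glial precursors. It showed no such separation, with 14.4, 18.4 and 9.66 TPM in control and 22.1, 16.2 and 8.55 TPM in cKO mice. Replicate 3 was the lowest in both groups. The log2 fold change was 0.07 with a 95% interval from −0.67 to 0.81 (adjusted p = 0.911 in edgeR), which holds changes in both directions. It turned to −0.18 without replicate 1 of cKO and to −0.10 without replicate 3 of control.

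*Acta2* (gene ID 11475), the smooth muscle actin gene, was set apart by a single library. It had 126, 56.7 and 116 TPM in control and 488, 83.1 and 87.9 TPM in cKO mice. Replicate 1 of the latter held 74.0% of the group's sum, while its other two libraries lay inside the range of the controls. The log2 fold change was 1.10 (95% interval −0.46 to 2.66, adjusted p = 0.344 in edgeR) and −0.02 without that library. The contractile genes *Tagln*, *Myh11*, *Cnn1*, *Des*, *Myl9*, *Tpm2*, *Mylk* and *Lmod1* of a wider mural list had the same library on top, with *Tagln* at 210 TPM in it and 35.0 to 87.3 TPM elsewhere, and *Myh11* at 5.71 TPM in it and 1.06 to 2.20 TPM elsewhere. *Pdgfra* and *Pdgfa* were the 2 of 9 genes whose highest library was another one, and 31.5% of all genes tested were highest in that library.

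*Acta2* is a classical target of serum response factor, which binds the CArG box. *Pdgfc* is shown beside it because, of the 7 members searched, only its promoter window held a full CArG box. RefSeq promoter windows (GRCm38.p6, from 250 bases before to 50 after the start site) were searched for 7 of the 9 genes, 8 windows in all. *Pdgfb* and *Pdgfrb* were not searched. Windows on 1 chromosome were left out of the search of the listed genes but were counted among all windows. Both strands were searched for the CArG box by name, and then with at most 1 mismatch after *Acta2* was found to hold no full match. A full match was present in 1.63% of all 32851 windows and in 1 of the 8, and a match with up to 1 mismatch in 21.1% of all windows and in 3 of the 8. The windows lie at chr19:34255324-34255623 on the minus strand and chr3:81036166-81036465 on the plus strand. Capitals mark the matches, which begin at positions −84 and −34 from the start site in *Acta2* and at −17 in *Pdgfc*.
Acta2: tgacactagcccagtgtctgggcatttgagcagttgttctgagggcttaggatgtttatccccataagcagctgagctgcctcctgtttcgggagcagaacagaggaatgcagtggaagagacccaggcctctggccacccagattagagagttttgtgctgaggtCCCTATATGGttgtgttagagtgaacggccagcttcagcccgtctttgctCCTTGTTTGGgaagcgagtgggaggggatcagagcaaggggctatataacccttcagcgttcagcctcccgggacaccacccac
Pdgfc: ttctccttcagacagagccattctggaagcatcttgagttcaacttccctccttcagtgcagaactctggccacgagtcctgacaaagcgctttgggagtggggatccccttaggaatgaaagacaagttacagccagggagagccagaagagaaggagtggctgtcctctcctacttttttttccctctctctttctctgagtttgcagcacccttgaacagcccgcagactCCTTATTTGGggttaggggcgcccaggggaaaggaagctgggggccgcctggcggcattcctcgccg
The third gene with such a match was *Cspg4*. The matches are descriptions of these letters, and binding was not measured.

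**Figure D2:**
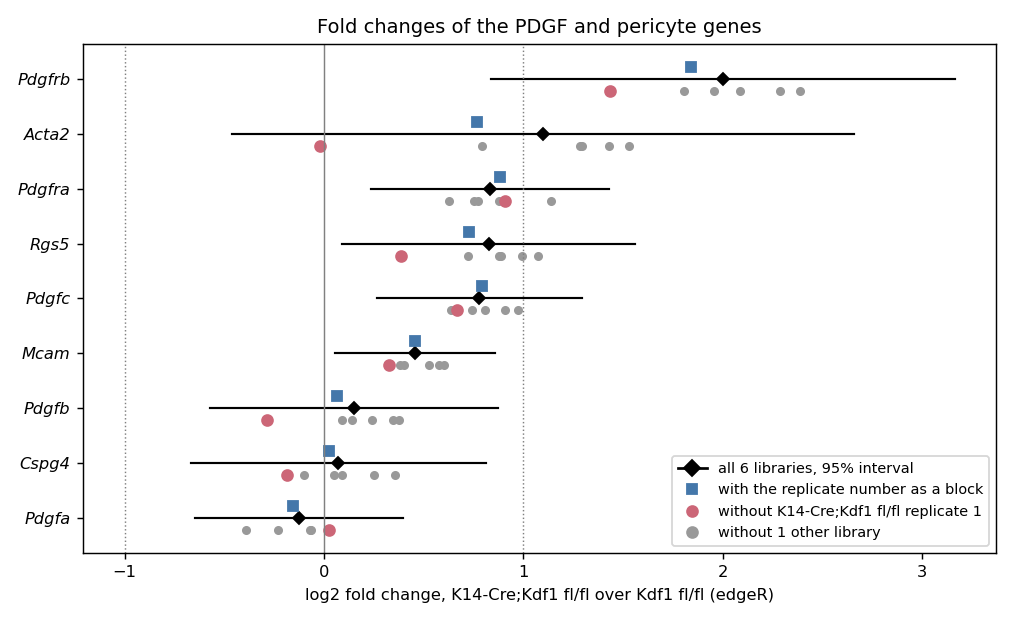
Log2 fold change of each gene (x axis) from edgeR, with its 95% interval, beside the value with the replicate number as a block and the values with 1 library left out. Without replicate 1 of cKO, *Acta2* moved from 1.10 to −0.02, whereas *Pdgfrb* stayed above 1.

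The order of the levels was compared within each group on the TPM scale. In control mice it ran from *Pdgfa* (141 ± 14.1 TPM) over *Mcam* (116 ± 20.8) and *Acta2* (99.6 ± 37.6) to *Rgs5* (43.2 ± 6.38) and *Pdgfra* (37.7 ± 15.2), and further to *Pdgfb* (15.0 ± 0.983), *Cspg4* (14.2 ± 4.38), *Pdgfrb* (14 ± 5.54) and *Pdgfc* (9.31 ± 3.00). Neighbours in this order overlapped except *Acta2* with *Rgs5* and *Pdgfra* with *Pdgfb*. In cKO mice the order was *Acta2* (220 ± 232), *Mcam* (167 ± 39.9), *Pdgfa* (140 ± 34.2), *Rgs5* (81.9 ± 44.1), *Pdgfra* (69.6 ± 8.5), *Pdgfrb* (59.3 ± 40.3), *Pdgfb* (19.5 ± 10.1), *Pdgfc* (17.9 ± 3.54) and *Cspg4* (15.6 ± 6.77), and every pair of neighbours overlapped.

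To examine whether the perivascular genes kept their proportion to *Pdgfrb*, the ratio of TPM was taken within each library. *Cspg4* and *Pdgfrb* were at nearly equal levels in the control libraries, with ratios of 1.10, 0.921 and 1.07. In the cKO libraries the ratios were 0.215, 0.309 and 0.374, all below the controls. The ratio of *Rgs5* to *Pdgfrb* was 2.80, 2.48 and 4.79 in control and 1.29, 1.21 and 2.20 in cKO mice, again without overlap. The share of all genes whose ratio to *Pdgfrb* was likewise lower without overlap was not computed, so nothing is read from these separations.

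The difference in the mean log2 ratio was −1.81 for *Cspg4* and −1.09 for *Rgs5* (exact permutation test, two-sided, p = 0.1 for each). This is the smallest p that 3 libraries against 3 allow, so no ratio could pass 0.05. After Benjamini-Hochberg adjustment over 5 ratios the exact p was 0.25 for both. The ratios of *Pdgfra*, *Mcam* and *Acta2* to *Pdgfrb* were lower on average as well, with log2 differences of −0.94, −1.38 and −1.19 (exact p = 0.2, 0.2 and 0.3), but their groups overlapped. All 5 ratios share *Pdgfrb* and are not independent. *Pdgfrb* had the largest fold change of the members, so a lower mean ratio follows for any gene that rose less. Without replicate 1 of the cKO, the difference for *Pdgfra* was −0.40, and without replicate 3 it was −1.42. That for *Acta2* was −0.72 without replicate 2 of the cKO, −0.76 without replicate 3 of the controls and −1.85 without replicate 2 of the controls.

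**Figure D3:**
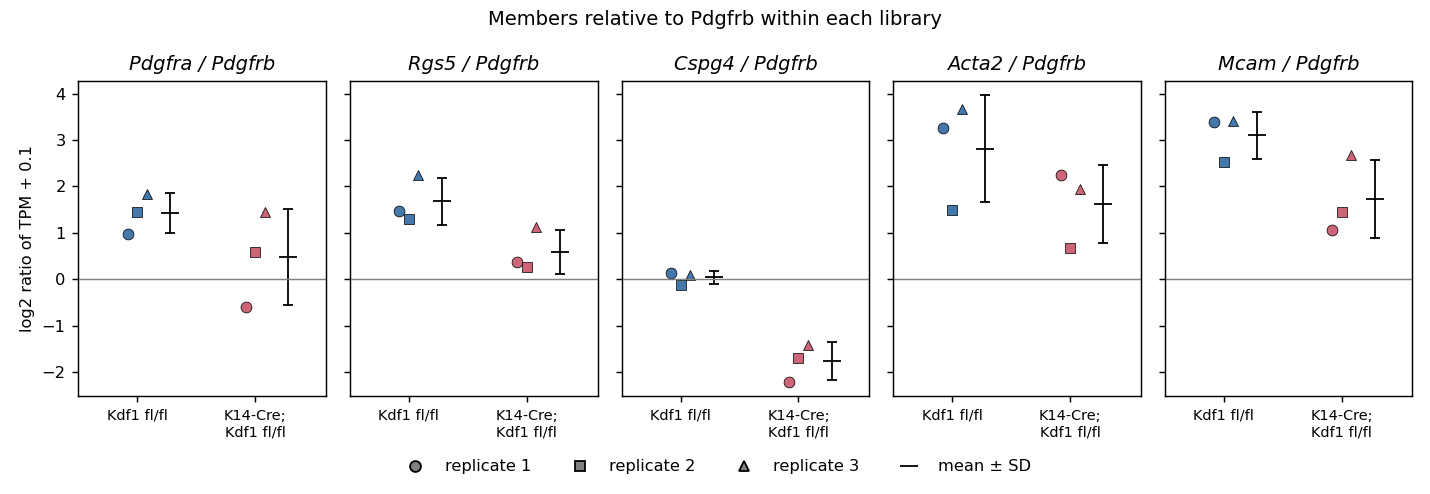
Log2 ratio of 5 genes to *Pdgfrb* in each library, from TPM with 0.1 added to each value (y axis), by genotype. Symbols mark the replicate and bars the mean ± SD, and the *Cspg4* ratios of the groups lie farthest apart relative to their spread.

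Other genes of the PDGF pathway were taken from a list of 24, all of which were tested. None was called in edgeR, 7 had an unadjusted p of at most 0.05 (4 higher, 3 lower) beside 24.5% of all genes, a share near that of the list, and the median log2 fold change was 0.13. Without replicate 1 of the cKO the median turned to −0.06. DESeq2 called 3 of 24, beside 6.81% of all genes. With the replicate block in edgeR 2 of 24 were called, beside 6.09% of all genes, and nothing is read from these counts about the list. The 2 were *Plat* and *St14*, which both encode proteases that process PDGF ligands. *Plat* encodes tissue plasminogen activator, which cleaves PDGF-C, and it had 9.08, 9.50 and 7.60 TPM in control and 48.6, 25.6 and 14.04 TPM in cKO mice. It rose with the block (log2 fold change 1.53, adjusted p = 0.0276 in edgeR), and without the block the adjusted p was 0.0735.

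*St14* encodes matriptase, an epithelial membrane protease that can cleave PDGF-D. It fell with the block (log2 fold change −1.01, adjusted p = 0.00944 in edgeR) and had an adjusted p of 0.0637 without it. Its levels were 86.4, 86.5 and 117 TPM in control and 46.6, 47.5 and 56.0 TPM in cKO libraries, with no overlap. *Pdgfd*, the ligand gene for PDGFRβ that was not among the 9, had 2.89, 8.64 and 3.73 TPM in control and 12.6, 6.31 and 3.24 TPM in cKO mice and overlapped. Of the signalling adaptors, *Shc1* had a log2 fold change of 0.40 and *Grb2* of −0.25 (adjusted p = 0.159 and 0.233 in edgeR), and *Nck1* and *Nck2* were at 0.00 (adjusted p = 0.994 and 0.988). *Cbl*, which encodes a ubiquitin ligase that sends activated receptors to degradation, was at −0.43 (adjusted p = 0.0818 in edgeR).

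A list of 28 other mural cell genes, that is genes of pericytes and vascular smooth muscle, had 27 genes in the table and 25 tested. None was called in edgeR, 12 of 25 had an unadjusted p of at most 0.05 (8 higher, 4 lower) beside 24.5% of all genes, and the median log2 fold change was 0.53. DESeq2 called 5, beside 6.81% of all genes. The replicate block in edgeR called 5, of which 4 were higher and 1 lower, beside 6.09% of all genes. *Foxf2*, a forkhead factor of pericytes and of craniofacial mesenchyme, had the largest log2 fold change, with 14.7, 23.1 and 8.66 TPM in control and 185, 80.4 and 56.9 TPM in cKO mice. Its log2 fold change was 2.66 with the block (adjusted p = 0.0124 in edgeR) and 2.73 without it (adjusted p = 0.0582).

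*Mylk*, the myosin light chain kinase gene, was at 4.91, 6.09 and 4 TPM and at 50.6, 17.8 and 12.9 TPM in the same order, and *Art3*, an ecto-ADP-ribosyltransferase gene, at 0.99, 1.25 and 0.57 TPM and at 6.01, 2.68 and 2.43 TPM. With the block both rose, by 2.05 (adjusted p = 0.0284, edgeR) and 1.89 (adjusted p = 0.0391, edgeR) on the log2 scale. *Tbx2*, a T-box factor gene, rose with the block (1.04, adjusted p = 0.0155 in edgeR) although its groups overlapped, and replicate 2 was the highest in both groups with 53.7 and 89.5 TPM. *Anpep*, the aminopeptidase N gene that pericytes share with other cells, fell with the block (−1.02, adjusted p = 0.0195 in edgeR), from 30.5 to 60.6 TPM down to 19.9 to 23.0 TPM.

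Further pericyte markers of this list were chosen after their values were seen. *Kcnj8* and *Abcc9*, which encode subunits of a potassium channel of pericytes, had log2 fold changes of 1.5 and 0.99 (adjusted p = 0.212 and 0.111 in edgeR, 0.0578 and 0.0294 with the block). The groups of *Kcnj8* overlapped. Besides *Anpep*, lower genes of the list included *Angpt1* and *Mfge8*, each at −0.67 without overlap, and *Heyl* at −0.60 with overlap. Their adjusted p was 0.0888, 0.147 and 0.162 in edgeR. In the list, 6 tested genes were higher and 3 lower without overlap, beside 14.5% and 16.2% of all genes. *Notch3* was at −0.05 and *Higd1b* at 0.15 (adjusted p = 0.947 and 0.877 in edgeR), and the 95% interval of *Higd1b*, which reaches 1.30, holds the value of *Abcc9*. *Vtn* was at 0 to 0.49 TPM and *Tbx18* at 0.07 to 0.22 TPM, and both were too low to be tested. In 5 of the 27 genes, among them *Kcnj8*, *Tbx2* and *S1pr3*, replicate 2 was the highest in both groups as it was for *Pdgfra*, beside 13.7% of all genes tested. In 17 of 27 genes the highest library was replicate 1 of cKO.

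**Figure D4:**
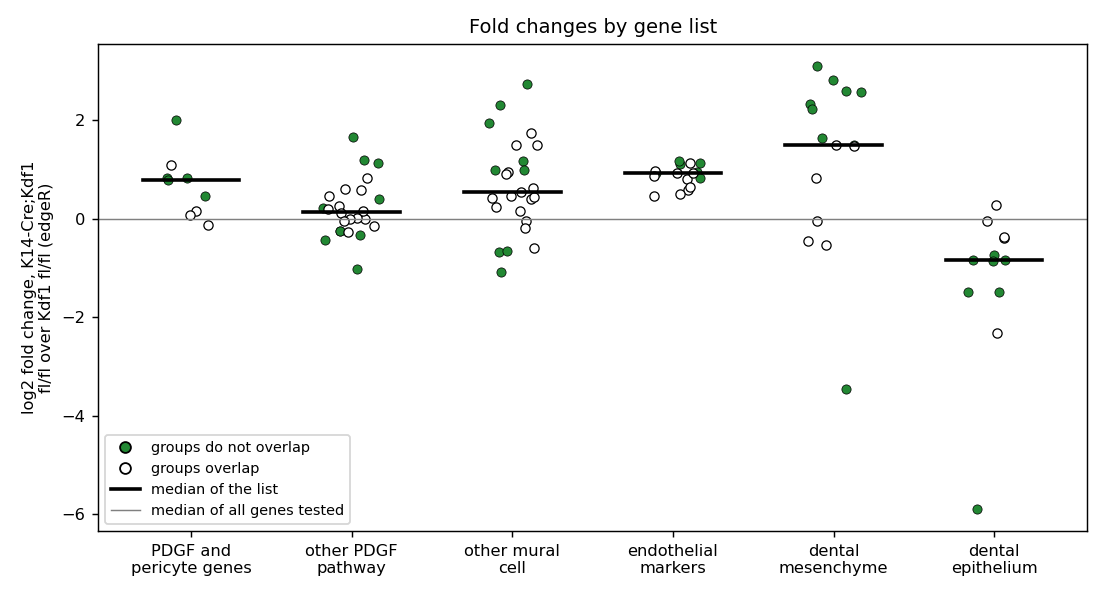
Log2 fold change (y axis, edgeR) of each tested gene in 6 lists, with filled points for genes whose groups do not overlap and a bar at the median of the list. The 16 endothelial markers all lie above 0, with a median of 0.93, and the dental epithelium markers have a median of −0.83.

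The endothelial and mesenchymal markers are given beside these lists. The median log2 fold change was 0.93 over 16 endothelial markers, of which none was called, 8 had an unadjusted p of at most 0.05 and DESeq2 called 3. It was 1.5 over 15 dental mesenchyme markers (1 called, *Twist1*, a mesenchymal transcription factor gene), of which DESeq2 called 9 and the replicate block 10 (9 higher, 1 lower). Over 12 dental epithelium markers it was −0.83 (1 called, *Cdh1*, the E-cadherin gene), with 3 called by DESeq2 and 4 with the block, all lower. In edgeR the median was −1.02 over 6 osteoblast markers, −0.21 over 6 Schwann cell markers tested and 0.63 over 4 skeletal muscle markers tested, with none called. At an unadjusted p of at most 0.05 there were 2, 2 and 1 genes in these 3 lists, and DESeq2 called 1, 1 and 0. The counts of all 6 lists stand beside 24.5% of all genes that reached this unadjusted p in edgeR, in either direction. The shares of all genes called were 0.432% in edgeR, 6.81% by DESeq2 and 6.09% with the block in edgeR. Without replicate 1 of the cKO, the median was 0.48 for the endothelial, 0.48 for the mural, 1.33 for the dental mesenchyme and −0.74 for the dental epithelium genes.

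The genes with the most similar course over the 6 libraries were sought among 10323 others with a mean of at least 10 CPM. Likeness was the root mean square difference of log2 CPM after centring each gene. The nearest to *Pdgfra* were *Cd1d1* (0.19), *Grk5* (0.20) and *Zfp383* (0.21). The nearest to *Pdgfrb* were *Jdp2* (0.18), *Loxl1* (0.19) and *Grb10* (0.19), where *Loxl1* encodes an elastic fibre crosslinking enzyme and *Grb10* an imprinted adaptor protein. For *Rgs5* the nearest were *Arpc1b* (0.08), *Col20a1* (0.10) and *Sh2d3c* (0.10). Among the members, *Pdgfra* and *Pdgfc* were closest to each other (0.25), and *Pdgfa* and *Pdgfrb* were farthest apart (1.34). These distances describe 6 libraries. They tend to be larger for genes that vary more, and the highest library had 11.4 times the lowest TPM for *Pdgfrb* and 3.6 times for *Rgs5*. Their sizes are therefore not read as a difference between members.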

How the data were processed

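RNA-seq libraries of laser-captured IEE at E18.5 were analysed, 3 per group, grouped by the titles in the labels. The submitters' processing notes name BWA 0.7.12, Picard 2.6.0 and StringTie. The genome build, the counting program and the test for differential expression are not given in the sources used here. The authors deposited estimated counts per gene, without normalisation, and 10.9% to 11.5% of them per library were not whole. The deposited TPM values were scaled by the authors for transcript length and to an equal total per library and served as levels. The deposited FPKM values and the authors' group means were not used.

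Counts were rounded and tested in R 4.3.3 with edgeR 4.0.16 (filterByExpr, TMM, robust quasi-likelihood F-test, two-sided, Benjamini-Hochberg over 14131 genes), with the study's thresholds. CPM used TMM-scaled library sizes. A count of 0 allows 3 counts, up to 0.198 CPM, counting error only. SE was the fold change divided by the root of F. In each library, ratios used log2(TPM + 0.1) and exact permutation. Alternatives were DESeq2 1.42.0, limma 3.58.1 (voom, log2(TPM + 1), log2(TPM + 0.1)), other scalings and filters, the replicate block and leaving out each library. An adjusted p of at most 0.1 was added after seeing the data.

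Replicate numbers were read as pairs because deviations of same-numbered libraries from the group means correlated at 0.135, 0.324 and 0.499, from the data and not from the labels. The correlations of differently numbered libraries are not given for comparison. The block was thus chosen on the same counts that it then tested, so p-values with the block may be too small. Within a group, the variance between libraries was 36.0 to 76.7 times that of sampling, so the libraries were not copies of one another. This does not show that they came from separate animals. The labels call the libraries biological replicates. On simulated counts for this comparison (14201 genes), 84.0% of changed genes with a log2 fold of 2 and 96.0% with 3 were recovered. The changed genes were drawn only from genes above a minimum mean count, and smaller folds were not simulated. All members except *Pdgfrb* had smaller fold changes, so these rates do not tell how often such changes would be called.

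The members and gene lists were chosen with earlier results of these data known. All members are named. From the other PDGF pathway and mural cell lists, up to 5 genes each past the criterion without and with the block were to be named, and for *Pdgfra*, *Pdgfrb* and *Rgs5* the 3 nearest genes. Other genes were named after their values were seen.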

Additional observations from a re-analysis of the deposited data

How the results depend on the processing

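Of 153 refits of the 9 fold changes, 147 had the direction of the values reported. The exceptions came from leaving out 1 library, where *Pdgfa* ranged from −0.39 to 0.03, *Pdgfb* from −0.28 to 0.38, *Cspg4* from −0.18 to 0.36 and *Acta2* from −0.018 to 1.53. The sign turned without cKO replicate 1 in all 4 of these genes, without cKO replicate 2 for *Pdgfa* (0.027 in place of −0.12) and without control replicate 3 for *Cspg4* (−0.10). None of these was called. The cause was not tested. All 45 refits of the ratios to *Pdgfrb* had the reported direction, including the sign-flip test of the pairing, whose smallest p is 0.25. In each refit of the fold changes *Pdgfrb* rose more than the genes set against it, so this direction says nothing more about those genes.

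The number of members called was 0 in edgeR and 1 (*Pdgfrb*) with the replicate block in edgeR, with DESeq2, with DESeq2 and the block, and at an adjusted p of at most 0.1. It was 0 to 1 with 1 library left out. Under the same 4 settings, other PDGF pathway genes called were 2, 3, 3 and 2 (0 to 2 with 1 library left out), and other mural genes 5, 5, 6 and 4 (0 to 5). All genes called, 61 in edgeR, were 860, 1038, 1152 and 669 under these settings (6.09%, 6.81%, 7.55% and 4.73% of the genes tested). They were 7 with DESeq2's size factors, 9 by library size alone, 103 without the filter, 6 with at least 10 counts in every library, 6 with limma-voom and 16 with limma on log2(TPM + 1). With 1 library left out they were 1 to 465, the highest without cKO replicate 3 and 16 without control replicate 2. The 61 were 20 higher and 41 lower, against 1 and 6 with DESeq2's size factors, 2 and 7 by library size alone and 588 and 272 with the block. No other call of a member changed with the block.

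*Mcam* had an adjusted p from 0.0195 (DESeq2 with the block) to 0.425 over 17 alternatives. With 3 libraries per group, wide intervals such as that of *Acta2* hold both directions.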

Other observations

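Levels were also set against the 16 endothelial markers, as TPM of the gene per 100 TPM of the markers' sum in the same library. This scaling was chosen after the values were seen, and no test was run on it. The sum itself was higher in every cKO library (450.7 to 1142 TPM) than in any control (320.7 to 430.9 TPM). Compared with TPM, the scaling therefore lowers the cKO level of a gene relative to its control level. Of all genes tested, 50.6% were lower without overlap on this scale and 2.75% were higher without overlap. *Pdgfrb* had 3.37, 4.64 and 2.81 in control and 8.98, 8.25 and 5.07 in cKO replicates 1, 2 and 3, still without overlap. *Rgs5*, which was higher in every cKO library in TPM, had 11.5 ± 2.03 and 10.9 ± 0.834 (SD, n = 3 per group) on this scale, and the groups overlapped.

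*Cspg4* and *Pdgfb* were lower without overlap on this scale, as were 50.6% of all genes, so nothing is read from their separation. *Cspg4* had 3.69, 4.27 and 3.01 in control and 1.93, 2.55 and 1.90 in cKO libraries. *Pdgfb* had 4.12, 3.41 and 4.42 against 2.73, 2.23 and 2.95. *Acta2*, *Mcam*, *Pdgfa*, *Pdgfc* and *Pdgfra* overlapped between the groups.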
